A study of Mus musculus with 2 samples.

Results

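The 10 genes described here carry dietary fat through the enterocyte: the apolipoprotein genes Apoa1, Apoa4, Apob and Apoc3, the microsomal transfer protein gene Mttp, the fatty acid-binding protein genes Fabp1 and Fabp2, the triglyceride synthesis genes Mogat2 and Dgat1, and the fatty acid receptor gene Cd36. They were chosen by symbol for their function in fat absorption, with earlier results of these data known. Each symbol named 1 of the 31053 genes counted. Levels were followed across absorptive epithelium (enterocytes, also graded by their share of Apoa4), crypt epithelium and leukocytes.

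Single cells came from the proximal small intestine of 2 VilCreER Apc fl/fl mice (APC mice), each injected with 2 mg tamoxifen on 2 occasions 24 h apart and sampled on day 4. In this model the Villin promoter drives a tamoxifen-dependent Cre recombinase in intestinal epithelium, where both floxed copies of Apc, a brake on Wnt signalling, are deleted. Both libraries belonged to this 1 group and no control library was used, so every comparison is between cell classes of the same mice. Deletion was not measured: Apc was counted at 77.1 and 52.1 UMIs per 1000000 UMIs (CPM) in the enterocyte-like classes of mouse 1 and mouse 2, and at 55.8 and 50.7 CPM in T-cell- or innate-lymphoid-like cells, but a count from the 3′ end of a transcript need not come from the deleted part.

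Fat leaves the intestinal lumen as fatty acids and monoglycerides. Enterocytes bind the fatty acids with Fabp1 and Fabp2 and rebuild triglyceride through Mogat2 and Dgat1. Mttp then loads the lipid onto the apolipoprotein B chain in the endoplasmic reticulum, and the particle leaves the cell as a chylomicron that also carries apolipoproteins A-I, A-IV and C-III. Expression of this programme is a mark of differentiated villus enterocytes, while the dividing cells of the crypt have little of it.

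Unique molecular identifiers (UMIs) counted 1 tag for each captured molecule, so levels in CPM are shares of all UMIs of a class and need no division by gene length. Barcodes were kept above 100 genes and 400 UMIs and below 5% of UMIs from mitochondrial and 10% from haemoglobin genes: 7941 of 9645 barcodes in mouse 1 and 6957 of 8800 in mouse 2. The whole libraries held 85670711 and 38716743 UMIs, the kept cells had medians of 4381 and 2803 UMIs, and 24 barcodes occurred in both libraries. The 10 genes, the other lipid genes and Apc were left out of the features used for clustering. This gave 761 and 166 enterocyte-like, 110 and 29 crypt-like and 34 and 36 Paneth-like cells, beside 3102 and 5290 T-cell- or innate-lymphoid-like, 2180 and 607 plasma-cell-like, 435 and 97 B-cell-like, 622 and 461 macrophage- or monocyte-like and 217 and 157 dendritic-cell-like cells. The 15 enterocyte markers summed to 34887 and 34850.0 CPM in enterocyte-like and to 464 and 1174 CPM in crypt-like cells, with none of the 15 at 0 in the former. The 30 crypt markers summed to 7046 and 8351 CPM in crypt-like and to 623 and 740 CPM in enterocyte-like cells. RNA of other cells was present in the enterocyte-like sums, where the 11 plasma-cell markers summed to 25273 CPM in mouse 1 and 2980 CPM in mouse 2. The median mitochondrial share was 0.0404% and 0% in enterocyte-like cells, 0.031% and 0.00611% in crypt-like cells and 2.34% and 2.84% in T-cell- or innate-lymphoid-like cells.

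Apoa1, Apoc3 and Apoa4 lie together on chromosome 9 of mm10, within 14.88 kilobases from the first base of Apoa1 (46228580) to the last base of Apoa4 (46243459), with Apoc3 on the minus strand between them. Apob (chromosome 12, 7977648 to 8016835), Fabp1 (chromosome 6, 71199827 to 71205023), Fabp2 (chromosome 3, 122895072 to 122899506), Mttp (chromosome 3, 138089854 to 138144968), Dgat1 (chromosome 15, 76502015 to 76511953), Mogat2 (chromosome 7, 99219084 to 99238619) and Cd36 (chromosome 5, 17781690 to 17888801) stand apart from that group. Genes on the opposite strand overlap Apoa4 (Gm10680), Mttp (Gm43691 and Trmt10a), Fabp2 (4933405D12Rik) and Mogat2 (Gm45012), and the strand setting of the counting was not given in the sources used here. RefSeq windows from 250 bases before to 50 bases after the annotated start were found for 7 of the 10 genes. The windows of 2 pairs whose levels went together from cell to cell, Apoa1 with Apoa4 and Fabp1 with Fabp2, are printed 5′ to 3′ with motif matches in capitals.
Apoa1 promoter window, GRCm38.p6 chr9:46228380-46228679, plus strand: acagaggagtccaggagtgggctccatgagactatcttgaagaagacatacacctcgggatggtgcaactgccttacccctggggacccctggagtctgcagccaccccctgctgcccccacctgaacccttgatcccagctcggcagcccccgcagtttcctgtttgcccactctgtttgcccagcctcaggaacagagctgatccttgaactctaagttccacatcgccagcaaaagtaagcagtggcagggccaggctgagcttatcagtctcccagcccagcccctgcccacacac
Apoa4 promoter window, GRCm38.p6 chr9:46240594-46240893, plus strand: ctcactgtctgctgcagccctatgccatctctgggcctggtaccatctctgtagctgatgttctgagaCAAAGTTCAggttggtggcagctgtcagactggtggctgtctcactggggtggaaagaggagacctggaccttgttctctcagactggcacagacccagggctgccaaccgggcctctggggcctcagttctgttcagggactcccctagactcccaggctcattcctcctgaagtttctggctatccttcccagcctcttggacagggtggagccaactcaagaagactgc
Fabp1 promoter window, GRCm38.p6 chr6:71199629-71199928, plus strand: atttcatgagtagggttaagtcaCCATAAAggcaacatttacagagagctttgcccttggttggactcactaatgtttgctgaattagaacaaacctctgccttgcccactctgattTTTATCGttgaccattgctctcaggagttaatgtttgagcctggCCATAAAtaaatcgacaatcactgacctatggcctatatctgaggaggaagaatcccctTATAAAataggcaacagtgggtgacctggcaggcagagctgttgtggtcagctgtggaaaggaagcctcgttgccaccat
Fabp2 promoter window, GRCm38.p6 chr3:122894822-122895121, plus strand: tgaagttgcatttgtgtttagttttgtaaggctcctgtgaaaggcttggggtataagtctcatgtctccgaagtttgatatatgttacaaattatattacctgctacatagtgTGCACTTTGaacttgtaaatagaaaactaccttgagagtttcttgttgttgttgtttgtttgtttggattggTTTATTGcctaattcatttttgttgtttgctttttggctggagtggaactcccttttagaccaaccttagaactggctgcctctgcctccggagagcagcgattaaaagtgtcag

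The motifs were searched on both strands after the data had been seen. CAAAGNNCA, the direct repeat bound by HNF4 and other nuclear receptors with its middle bases left free, was in 6.36% of 32851 such windows of all genes and in those of Apoa4, Apob and Fabp2. The stricter forms CAAAGTCCA and CAAAGGTCA, in 0.475% and 0.478% of all windows, were in none of the 7. TTTATNG, read by caudal-type homeobox factors, was in 10.9% of all windows and in those of Apob, Fabp1 (with 3 matches) and Fabp2, and TATAAA, the TATA box, in 13.6% of all windows and in those of Apob and Fabp1. In Apob the TTTATNG match overlaps the TATA box. AGATAA, a form read by GATA factors, was in 11.2% of all windows and none of the 7, and no other GATA form was searched. The RefSeq start of Apoa4 lies 148 bases downstream of the start in the gene annotation used here, that of Apoa1 50 and that of Fabp1 52, so part of each of these windows is transcribed under the other annotation. For Mttp and Cd36 the distance is 1550 and 52905 bases, so their windows, counted among the 7, lie wholly within the gene as annotated here. A match describes letters only, and no factor's binding was measured.

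In enterocyte-like cells the fatty acid-binding proteins led, the apolipoproteins of the chromosome 9 group followed, and the genes of particle assembly and triglyceride synthesis were far lower. Fabp2 stood at 9299 CPM in mouse 1 and 36957.5 CPM in mouse 2, and Fabp1 at 9019.5 and 24738 CPM. These were the 2 members that differed most between the mice, by 3.97 times for Fabp2 and 2.74 times for Fabp1, both higher in mouse 2. Apoa1, the main protein of high-density lipoprotein and a chylomicron surface protein, stood at 3451 and 3324 CPM. Apoc3, an inhibitor of triglyceride clearance, stood at 1694 and 2221 CPM, and Apoa4, a surface apolipoprotein induced by fat, at 1002 and 877 CPM. The order Fabp2, Fabp1, Apoa1, Apoc3, Apoa4 was the same in both mice.

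The other members were counted at 119 CPM or less. Mttp stood at 119 CPM (95% Poisson interval 109 to 129) in mouse 1 and 77.4 CPM (57.8 to 101.5) in mouse 2. Apob, the structural protein of the chylomicron, stood at 108 CPM (98.5 to 118) and 89.3 CPM (68.1 to 115). Mogat2, which adds a fatty acid to monoglyceride, stood at 103 CPM (94.3 to 113) and 74.4 CPM (55.2 to 98.1). The intervals of these 3 genes overlap in both mice, so their order was not resolved. A single cell of mouse 1 held 119 of the Apob and 103 of the Mttp UMIs, and without it Apob stood at 84.6 CPM and Mttp at 99.6 CPM. Dgat1, which makes triglyceride from diglyceride, stood at 93.0 CPM (84.4 to 102) and 49.1 CPM (33.8 to 69.0). Cd36 was close to absent, with 13 UMIs in 761 cells and 2 UMIs in 166 cells (2.88 and 2.98 CPM). Intervals cover counting error only.

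Crypt-like cells held Fabp2 at a low level and the rest of the programme, Fabp1 aside, with few UMIs. Fabp2 stood at 233 and 883 CPM in crypt-like cells, with 200 of the 491 UMIs of mouse 2 in a single cell. Thinned to 1000 UMIs a cell, Fabp2 was seen in 18.0% and 33.8% of crypt-like cells, in 91.8% and 91.7% of enterocyte-like cells and in 3.61% and 2.40% of T-cell- or innate-lymphoid-like cells. Without thinning, at median depths of 12637.5 and 18151 UMIs, 76.4% of 110 and 93.1% of 29 crypt-like cells had a Fabp2 UMI, against 10.6% and 5.37% of T-cell- or innate-lymphoid-like cells at medians of 3247.5 and 2564 UMIs. Fabp2 was thus seen in most crypt-like cells, and more often than in T-cell- or innate-lymphoid-like cells after thinning in both mice.

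Fabp1 was less evenly spread in the crypt-like cells. It stood at 83.4 CPM in mouse 1, where a single cell held 49 of 143 UMIs and macrophage- or monocyte-like cells stood at 89.7 CPM, so that it was not above the highest leukocyte level. In that leukocyte class 7 of 622 cells held 232 of 341 Fabp1 UMIs. The T-cell- or innate-lymphoid-like, plasma-cell-like, B-cell-like and dendritic-cell-like cells of mouse 1 stood lower, at 17.6 to 39.8 CPM. In crypt-like cells of mouse 2 Fabp1 stood at 725 CPM, where 9 of 29 cells held all 403 UMIs and a single cell held 180 of them. Apoa1 stood at 9.33 and 10.8 CPM in crypt-like cells, below the 12.8 CPM of T-cell- or innate-lymphoid-like cells in mouse 1 and above their 1.95 CPM in mouse 2. Apoa4 showed the same split, with 1.17 and 5.40 CPM against 5.69 and 0.806 CPM. Mouse 1 gave no sign of either gene in crypt-like cells beyond the leukocyte level, and the mouse 2 values rest on 6 Apoa1 UMIs in 3 cells and 3 Apoa4 UMIs in 1 cell. Apoc3 (9.92 and 14.4 CPM), Mttp (5.83 and 14.4 CPM), Apob (5.83 and 5.40 CPM), Dgat1 (7.0 and 12.6 CPM) and Mogat2 (5.83 CPM and 0 of 556073 UMIs, which allows up to 5.39 CPM at a floor of 3 counts) were each counted with 17 UMIs or fewer in a mouse. In mouse 1 the crypt-like levels of Apob and Mogat2 were 5.41% and 5.64% of the enterocyte-like levels, against 1.04% and 0.360% in T-cell- or innate-lymphoid-like cells, and those of Apoc3 were 0.586% against 0.347%. Single cells of mouse 1 held 4 of the 10 Apob, 6 of the 10 Mogat2 and 10 of the 17 Apoc3 UMIs. In mouse 2 single cells held 6 of the 8 Apoc3 and 5 of the 8 Mttp UMIs. Of Cd36 there was 1 UMI in mouse 1 and none in mouse 2. Paneth-like cells, whose class was also led by enteroendocrine and goblet genes such as Cck and Tff3, had Fabp2 at 202 and 811 CPM, Apoa1 at 67.3 and 408 CPM and Apob at 7.08 and 67.6 CPM. The make-up of this class differed between the mice: the 11 Paneth markers summed to 98981 CPM and the 11 enteroendocrine markers to 3170 CPM in mouse 1, against 27910 and 47902 CPM in mouse 2, so the mice were not compared in it.

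**Figure D1:**
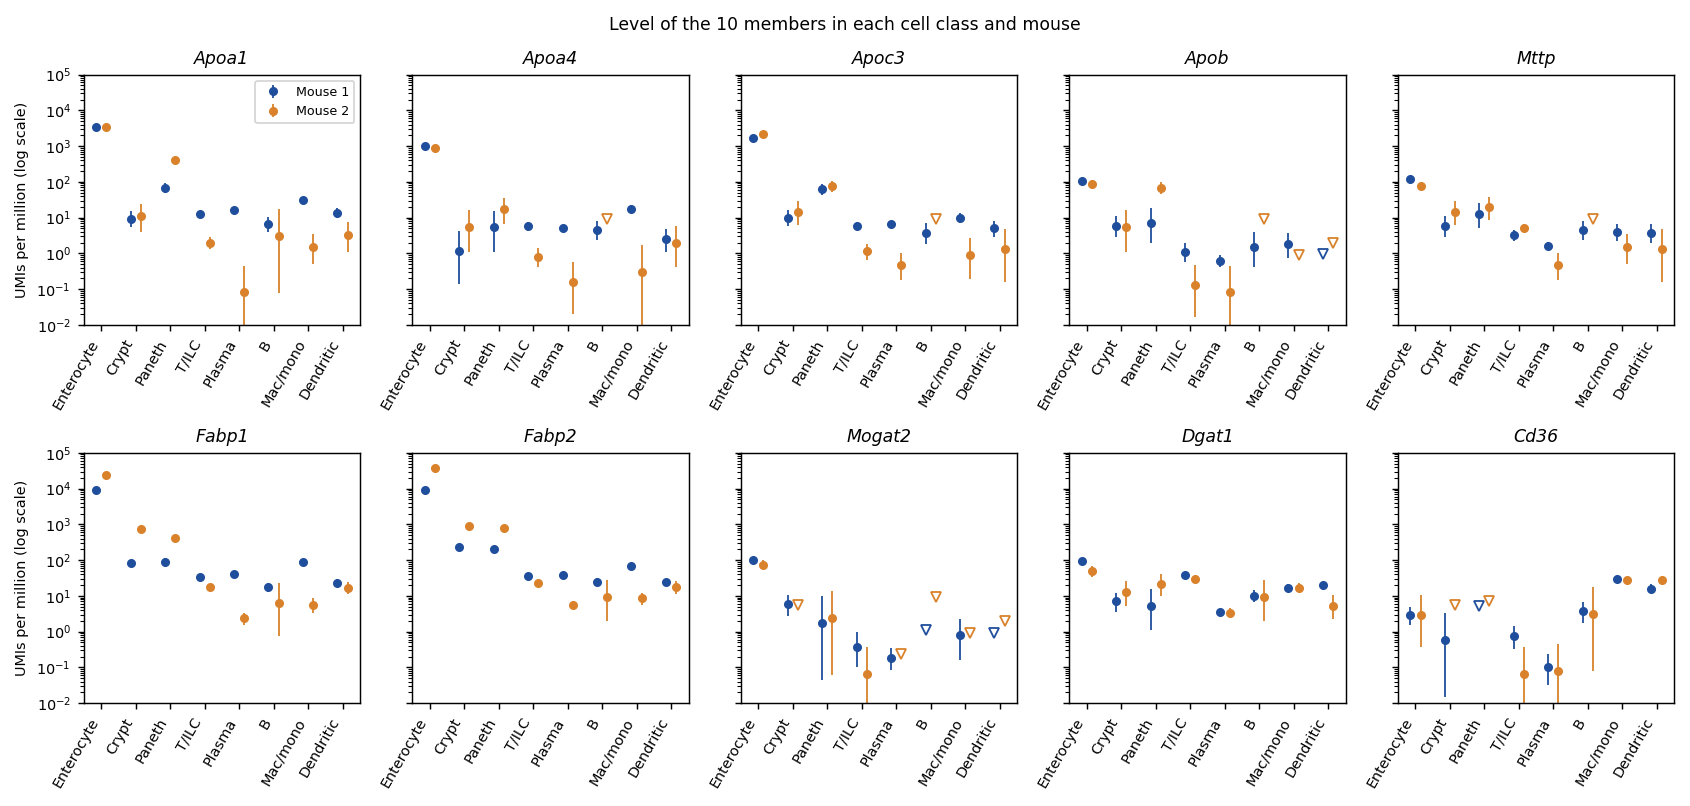
Level of each of the 10 genes, in CPM on a log scale, in the 8 classes that had 20 or more cells per mouse. Points are class sums of mouse 1 and mouse 2 with exact Poisson 95% intervals, and open triangles mark the floor of 3 counts where no UMI was counted. Fabp1 and Fabp2 stand at 9019.5 or more in enterocyte-like cells, Dgat1 is highest in enterocyte-like cells and next in T-cell- or innate-lymphoid-like cells of both mice, and Cd36 is highest in macrophage- or monocyte-like and dendritic-cell-like cells.

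The question of how far the programme separates absorptive from crypt epithelium was tested on UMIs summed per mouse and class, with edgeR's quasi-likelihood test over 12822 genes. Of the 10 members, 9 were higher in enterocyte-like cells at an adjusted p under 0.05 and none was lower, where 21.3% of all genes tested were called higher and 14.9% lower. The median log2 fold change of the members was 5.30, and that of all genes 0.10. The apolipoproteins of the chromosome 9 group had the largest changes: 9.03 ± 1.67 (log2, SE) for Apoa4 (adjusted p = 0.00101), 8.82 ± 1.89 for Apoa1 (adjusted p = 0.00266) and 7.78 ± 1.26 for Apoc3 (adjusted p = 0.000397). Fabp1 (5.84 ± 1.49, adjusted p = 0.00784) and Fabp2 (5.78 ± 1.18, adjusted p = 0.00197) came next. Crypt-like cells had 2 and 3 UMIs of Apoa4 and 16 and 6 of Apoa1, in mouse 1 below the T-cell- or innate-lymphoid-like level. The size of these 2 changes is therefore uncertain, and differences between the members were not tested. Mogat2 (4.82), Apob (4.52), Mttp (4.00) and Dgat1 (3.52) followed, with adjusted p between 0.000270 and 0.00143. All 9 were higher in both mice. Cd36 had a log2 fold change of 3.10 ± 1.27 from 15 UMIs against 1, and did not pass (adjusted p = 0.0773, and 0.0365 to 0.426 over 11 alternatives).

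Against T-cell- or innate-lymphoid-like cells, all 10 members were higher in enterocyte-like cells, where 35.1% of the 12822 genes were called higher and 27.1% lower. Fold changes on the log2 scale ran from 2.06 ± 0.44 for Dgat1 (adjusted p = 0.00113) and 3.82 ± 0.76 for Cd36 (adjusted p = 0.000774) to 10.42 ± 1.44 for Fabp2 (adjusted p = 2.9e-05, all by edgeR). Dgat1 and Cd36 were thus the members with the smallest difference from lymphocytes. Scaling by total UMIs in place of TMM lowered the median of all genes in this contrast by 0.877 and the Dgat1 change to 1.13 (adjusted p = 0.0312, edgeR), with all 10 members still called higher.

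**Figure D2:**
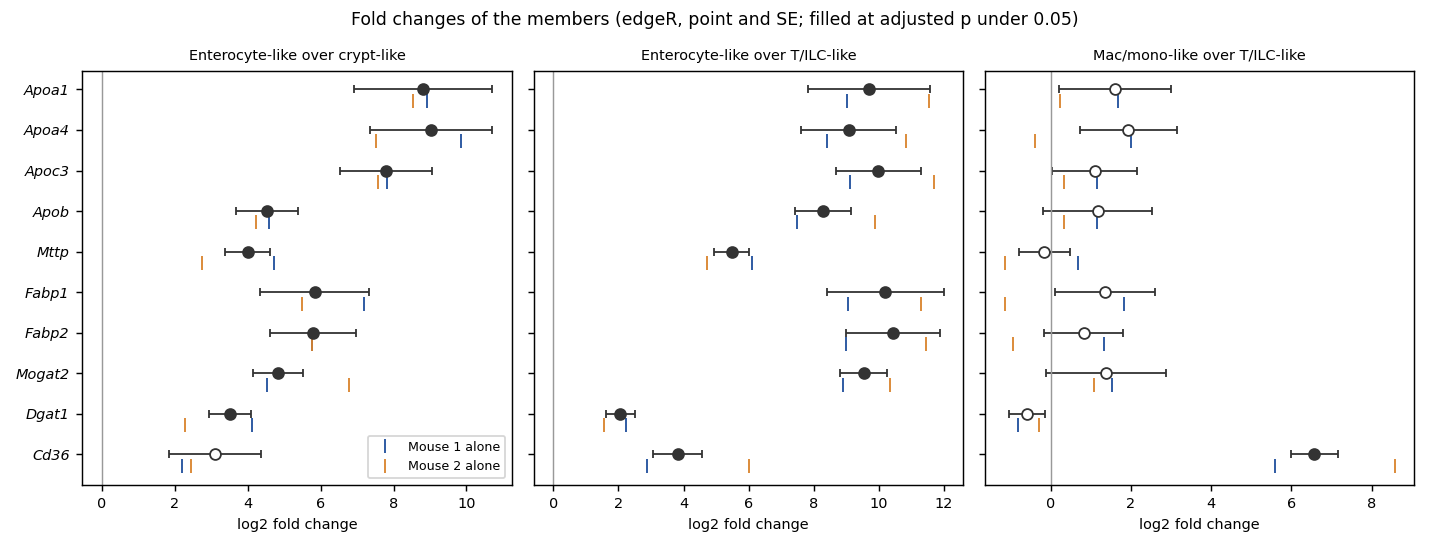
Fold changes on the log2 scale (x axis) of the members (y axis) in the contrasts tested with edgeR. Points are estimates with their SE, filled at adjusted p under 0.05, and ticks are the ratios of mouse 1 and mouse 2 alone. In enterocyte-like over crypt-like cells 9 of 10 points are filled, and in macrophage- or monocyte-like over T-cell- or innate-lymphoid-like cells that of Cd36 alone is.

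Leukocytes are not known to make chylomicrons, so the abundant members were read there as the background of free RNA. For Apoa1, Apoa4, Apoc3, Fabp1 and Fabp2, the level in T-cell- or innate-lymphoid-like cells was 0.347% to 0.568% of the enterocyte-like level in mouse 1 and 0.0514% to 0.0919% in mouse 2. The range in plasma-cell-like cells was 0.401% to 0.520% in mouse 1 and 0.00243% to 0.0218% in mouse 2. B-cell-like cells lay between 0.195% and 0.449% in mouse 1 and between 0% and 0.0937% in mouse 2, and dendritic-cell-like cells between 0.248% and 0.387% and between 0.0475% and 0.223%. In T-cell- or innate-lymphoid-like cells the 5 genes thus lay within 2 times of each other in each mouse, and every class had lower values in mouse 2. Macrophage- or monocyte-like cells of mouse 1 lay higher, from 0.590% for Apoc3 to 1.76% for Apoa4, against 0.0222% to 0.0459% in mouse 2.

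A few barcodes held much of this signal in mouse 1. In plasma-cell-like cells 14 of 2180 cells held 1398 of 1980 Fabp1 UMIs and 8 cells held 577 of 803 Apoa1 UMIs. In macrophage- or monocyte-like cells 7 of 622 cells held 232 of 341 Fabp1 UMIs and 4 cells held 79 of 120 Apoa1 UMIs. In T-cell- or innate-lymphoid-like cells of mouse 1, by contrast, 293 of the 320 cells with Fabp1 had a single UMI. Whether the barcodes with many UMIs held 2 cells was not tested, since the doublet caller marked 1 and 0 cells.

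Dgat1 and Cd36 departed from this background in both mice, and Mttp did so to a smaller extent. Dgat1 in T-cell- or innate-lymphoid-like cells stood at 38.1 and 29.7 CPM, 41.0% and 60.4% of its enterocyte-like level. Its share in the other leukocyte classes with 20 or more cells per mouse ran from 3.85% in plasma-cell-like to 21.0% in dendritic-cell-like cells of mouse 1, and from 6.90% in plasma-cell-like to 34.8% in macrophage- or monocyte-like cells of mouse 2. The neutrophil-like class was smaller, and its 18 cells of mouse 1 held 14 Dgat1 UMIs (233 CPM, 128 to 392) beside 18 UMIs of Apoa1 and 16 of Fabp2. Those shares are many times the free-RNA range of the abundant members, and the level of Dgat1 in T-cell- or innate-lymphoid-like cells was above that in crypt-like cells of either mouse. Within that class, 1 small cluster, singled out after its values were seen and led by genes such as Il22, a cytokine that acts on epithelium, and Il7r, held 147 of the 409 Dgat1 UMIs in 89 of the 3102 cells of mouse 1 and 51 of the 442 in 53 of the 5290 cells of mouse 2. Dgat1 stood there at 321 CPM (95% Poisson interval 271 to 377) and 297 CPM (221 to 390), above its enterocyte-like level in both mice, while Fabp1 stood at 17.5 and 23.3 CPM. In the other 6 clusters of the class Dgat1 ran from 0 to 51.2 CPM in mouse 1 and from 18.0 to 96.4 CPM in mouse 2. Dgat1 was not a clustering feature, and these values are given without a test. Mttp in T-cell- or innate-lymphoid-like cells stood at 3.26 and 5.17 CPM, 2.75% and 6.68% of the enterocyte-like level, with 31 of 33 and 63 of 70 positive cells holding a single UMI.

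Cd36 was highest in myeloid leukocytes, where it takes up oxidized lipoprotein. It stood at 28.9 CPM (110 UMIs in 50 of 622 cells) and 27.5 CPM (90 UMIs in 38 of 461 cells) in macrophage- or monocyte-like cells, 1005% and 923% of its enterocyte-like level. The 2 clusters of that class differed between the mice, with 12.3 and 71.0 CPM in the one and 37.7 and 14.3 CPM in the other. Dendritic-cell-like cells had 15.8 and 27.3 CPM, with 50 of 51 and 40 of 42 UMIs in 1 of their 2 clusters, and B-cell-like cells 3.75 and 3.11 CPM from 10 UMIs and 1 UMI. In macrophage- or monocyte-like over T-cell- or innate-lymphoid-like cells, Cd36 was the member called higher (6.57 ± 0.58 on the log2 scale, adjusted p = 3.01e-06 by edgeR, higher in both mice), where 25.4% of genes were called higher and 18.3% lower. The other 9 members did not pass, with log2 fold changes from -0.58 to 1.94. By CPM, the 8 members other than Cd36 and Dgat1 were above the T-cell- or innate-lymphoid-like level in mouse 1 and below it in mouse 2, where Apob and Mogat2 had no UMI in macrophage- or monocyte-like cells. Dgat1 was below it in both mice.

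**Figure D3:**
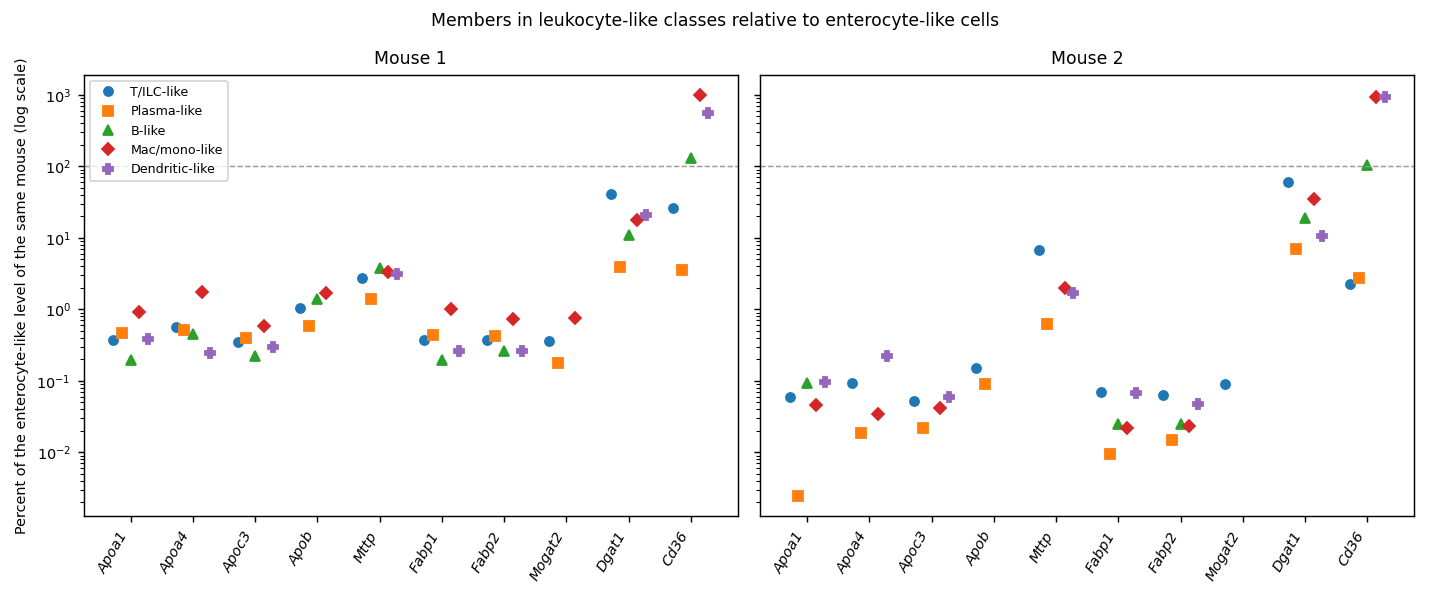
Level of each of the 10 genes (x axis) in 5 leukocyte-like classes as a percentage of the enterocyte-like level of the same mouse (y axis, log scale), for mouse 1 and mouse 2 in separate panels. Genes with no UMI in a class are not drawn and the dashed line marks 100%. The abundant apolipoproteins and fatty acid-binding proteins lie below 2% in every class, while Dgat1 reaches 41.0% and 60.4% in T-cell- or innate-lymphoid-like cells and Cd36 lies above 100% in 3 classes. In B-cell-like cells the Cd36 share rests on 10 UMIs and 1 UMI, with Poisson intervals of 62.4% to 239% and 2.65% to 583%, so it is not resolved from 100%.

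Across the 8 classes of both mice (16 sums), Apoa1, Apoa4, Apob, Apoc3, Mttp, Fabp1, Fabp2 and Mogat2 each followed the mean of the other 9 members closely (Pearson r of log2(CPM + 1) from 0.909 to 0.976), Dgat1 less so (0.655) and Cd36 not at all (-0.141). These values describe 16 sums that share 2 libraries, and no p is attached to them. Among 4134 genes with at least 20 CPM in enterocyte-like cells of both mice, the genes outside the members whose profile was most like their mean were Sult1b1 (0.988), Sult6b2 (0.985), Clec2h (0.980), Cideb (0.976) and Adh6a (0.975).

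Within the enterocyte-like class the members did not vary as 1 block. Sub-cluster e1, with 247 cells in mouse 1 and 31 in mouse 2, had the highest Apoa1 (6367 and 7246 CPM), Apoa4 (1864 and 1802 CPM) and Apoc3 (2579 and 4874 CPM). Sub-cluster e3 (183 and 42 cells) had Fabp1 at 10795 and 32393 CPM and Fabp2 at 11498 and 41667 CPM, beside 10498 and 30277 CPM and 11490 and 51165 CPM in e1, but Apoa4 at 336 and 190 CPM and Mttp at 30.3 and 33.3 CPM, the lowest Mttp of the 4 enterocyte-like sub-clusters in both mice. Sub-cluster e5 (90 and 19 cells) had the lowest Fabp1 (5631 and 10742 CPM), Fabp2 (3777 and 10932 CPM) and Apoc3 (298 and 400 CPM), with Mttp at 199 and 74.6 CPM. The remaining sub-cluster, e0, held cells of low depth (median 952 UMIs). These are descriptions, since the same cells were clustered.

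From cell to cell, among enterocyte-like cells with at least 2000 UMIs (495 and 92 cells), the closest pairs by Pearson r of log2(UMIs per 10000 UMIs + 1) were Fabp1 with Fabp2 (0.745 and 0.836), Apoa1 with Apoa4 (0.742 and 0.677) and Apoa1 with Apoc3 (0.596 and 0.701). Mttp with Fabp2 stood at -0.0527 and 0.107, and Apob with Fabp1 at 0.101 and -0.054. Cells of 1 library share its depth and free RNA, and a weak r between genes with few UMIs is no finding, so no p is given.

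To describe the members along the Apoa4 grade, enterocyte-like cells were cut into 3 equal groups within each mouse by the share of their UMIs that were Apoa4. The low group held 254 and 56 cells, of which 249 and 56 had no Apoa4 UMI, and the high group 253 and 55 cells with median Apoa4 shares of 0.222% and 0.166%. In the middle group of mouse 2, 21 of 55 cells also had no Apoa4 UMI. Cells without Apoa4 were ordered by depth, deepest lowest, so in mouse 2 depth set the cut between the low and middle groups. Apoa4 itself is fixed by this rule and was left out of the totals and tests. The groups also differed in depth (median UMIs of 1521.5, 5465.5 and 4021 from low to high in mouse 1, and 2597, 2949 and 2051 in mouse 2) and in sub-cluster, since no cell of e1 was in the low group. The 15 enterocyte markers summed to 19472, 34689 and 47352 CPM from low to high in mouse 1 and 23179, 35878 and 45608 CPM in mouse 2. The part of depth and of sub-cluster in the results below was not tested beyond a repeat with cells of at least 2000 UMIs.

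Apoa1 and Apoc3 went with the grade in both mice. Apoa1 stood at 463, 2598 and 6868 CPM from low to high in mouse 1 and at 608, 1971 and 7938 CPM in mouse 2. The rise in the high group over the low group was 3.76 ± 0.27 on the log2 scale (adjusted p = 0.00162, edgeR). Apoc3 stood at 687, 1632 and 2567 CPM in mouse 1 and at 754, 2133 and 3856 CPM in mouse 2, a rise of 2.12 ± 0.29 (adjusted p = 0.0205, edgeR). The 2 members called in this test, which has no term for the mouse, are the chromosome 9 neighbours of Apoa4. They were 2 of the 8 members tested, where 0.346% of 6357 genes were called higher and 1.51% lower, and Cd36 was too rare to be tested. With a term for the mouse 6 members were called higher, beside 389 of all 6357 genes, so the rise was not confined to these neighbours.

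The remaining 6 members did not pass without a term for the mouse. Fabp2 stood at 4317, 10041 and 12323 CPM in mouse 1 and at 23301, 40609 and 46265 CPM in mouse 2, and Fabp1 at 5127, 9914 and 10996 CPM and at 18790.5, 28899 and 25384 CPM. Both genes differed more between the mice than between the groups of a mouse. Dgat1 stood at 60.6, 77.9 and 138 CPM and at 19.5, 22.5 and 115 CPM, and Mogat2 at 67.5, 98.5 and 138 CPM and at 53.5, 52.6 and 125 CPM. Each of the 4 was higher in the high than in the low group of both mice. The groups are taken from the same 2 animals and are therefore paired. With the mouse as a replicate block in edgeR, 6 members were called higher: Fabp2 by 1.21 (adjusted p = 5.16e-10), Fabp1 by 0.73 (adjusted p = 4.08e-05), Dgat1 by 1.38 (adjusted p = 0.000793) and Mogat2 by 1.04 (adjusted p = 0.00582) beside Apoa1 and Apoc3, while 389 genes were then called higher and 389 lower.

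Apob and Mttp, the pair that forms the particle, did not go the same way in the 2 mice. Apob stood at 161, 75.2 and 107 CPM from low to high in mouse 1 and at 53.5, 48.8 and 181 CPM in mouse 2. Mttp stood at 151, 93.0 and 125 CPM and at 58.4, 45.1 and 140 CPM. A single cell decides the mouse 1 value of the low group: it carried 165313 UMIs, 4.94% of them mitochondrial, with 119 of the 188 Apob and 103 of the 177 Mttp UMIs of that group. Without it the low group stood at 68.6 CPM for Apob and 73.6 CPM for Mttp, below the high group as in mouse 2. Dgat1 in that low group stood at 32.8 CPM without the cell, which widened its rise. With enterocyte-like cells of under 1% mitochondrial UMIs only, a choice made after the data had been seen, the log2 changes were 1.44 for Apob and 1.26 for Mttp, and neither passed (adjusted p = 0.157 and 0.223, edgeR), against 0.18 and 0.16 with all cells.

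The calls of Apoa1 and Apoc3 depended on how the cells were cut. With 2 groups in place of 3 no gene was called (536 genes at an unadjusted p under 0.05), and Apoa1 and Apoc3 had adjusted p of 0.101 and 0.197 (edgeR). When Apoa4 was counted in a random part of each cell's UMIs and the other genes in the remaining part, Apoa1 was called (3.14, adjusted p = 0.00508) and Apoc3 was not (1.55, adjusted p = 0.0814), with 535 genes at an unadjusted p under 0.05. With cells of at least 2000 UMIs both were called (3.75, adjusted p = 0.0154, and 2.05, adjusted p = 0.043).

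**Figure D4:**
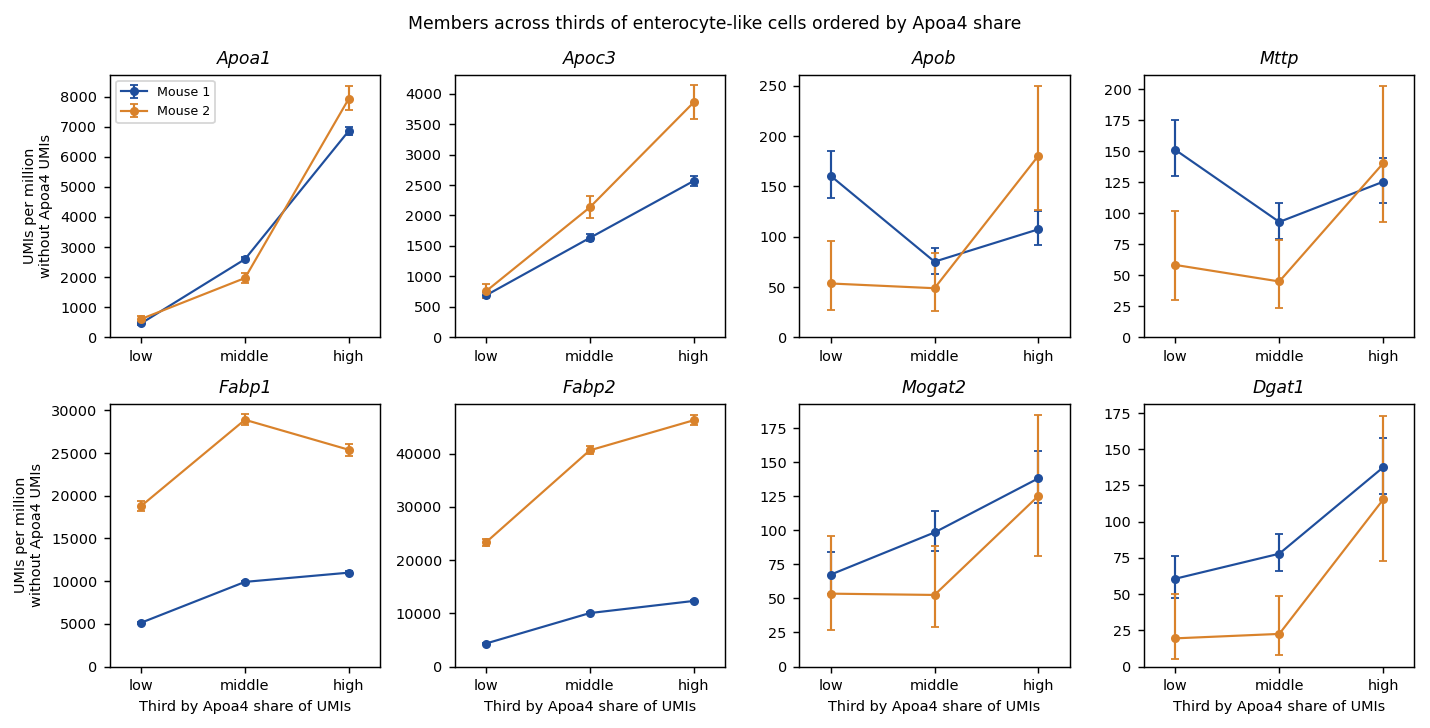
Levels of the members in CPM, with Apoa4 left out of the total (y axis, from 0), in the low, middle and high Apoa4 groups of enterocyte-like cells (x axis). Points joined by lines are mouse 1 and mouse 2, and bars are exact Poisson 95% intervals. Apoa1 climbs from 463 to 6868 in mouse 1 and from 608 to 7938 in mouse 2, and the low-group values of Apob and Mttp in mouse 1 are 68.6 and 73.6 without 1 deep cell.

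Outside the members, the 5 genes that rose most with the Apoa4 grade were Bst1, Cyp3a11, 2010106E10Rik, Ada and Slc46a1, the intestinal folate transporter, by 3.14 to 3.85 on the log2 scale (adjusted p from 0.022 to 0.034, edgeR). Ada, adenosine deaminase, is a gene of the villus tip, and went from 49.1 to 233 CPM in mouse 1 and from 29.8 to 659 CPM in mouse 2. It was the 1 gene called among 5 tested of the villus tip list, whose median log2 fold change was -0.28, beside -0.02 for all genes. The 5 that fell most were Wfdc18, 2210407C18Rik, Krt7, Dmbt1 and Tspan1. 2210407C18Rik went from 1350.0 to 23.3 CPM in mouse 1 and from 646 to 5.11 CPM in mouse 2, and Wfdc18, with no UMI in the high groups, was at least 38.2-fold lower in mouse 1 and at least 2.59-fold lower in mouse 2 against a floor of 3 counts. These calls also depended on how the cells were cut. With 2 groups in place of 3 no gene was called, and with separate parts of the UMIs Apoa1 alone was.

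Other genes of lipid handling were read from lists assembled with earlier results of these data known. In enterocyte-like over crypt-like cells (edgeR, adjusted p under 0.05), 21.3% of all genes tested were higher and 14.9% lower. Of 18 tested genes of triglyceride synthesis and lipid droplets, 11 were higher and none lower. Their median log2 fold change was 2.36, or 2.16 with genes unseen in crypt-like cells at their bound. Cideb, which feeds lipid to droplets and lipoproteins, rose by 6.47 ± 0.61 (243 and 252 CPM against 2.92 and 5.39 CPM). Cidec, a droplet protein, rose by 5.64, Dgat2, the second diglyceride acyltransferase, by 4.15, and Agpat2, which makes phosphatidic acid, by 4.06. Of 15 genes of chylomicron assembly and transport, 12 were higher and none lower (median 1.88). Tm6sf2, which takes part in lipoprotein lipidation, rose by 8.73, Pla2g12b by 4.40 and Sec23a, a coat protein of vesicles leaving the endoplasmic reticulum, by 3.49. Apoc2, the cofactor of lipoprotein lipase, had no UMI in crypt-like cells and was at least 18.99-fold and 9.66-fold higher in the 2 mice.

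Fatty acid uptake and activation was the list with the least shift. Of its 9 tested genes 4 were higher and 1 lower, beside 21.3% and 14.9% of all genes. Its median of 0.03 was below the all-gene median of 0.10. Slc27a4, a fatty acid transport protein, rose by 5.79, Acsl5, which activates fatty acids in enterocytes, by 3.11, and Scarb1, a lipoprotein receptor, by 2.22. Acsl4, which prefers arachidonic acid, fell by 2.14. Fatty acid oxidation and ketogenesis had 12 of 12 genes higher (median 2.00, or 1.87 with bounds), with Ehhadh, an enzyme of peroxisomal oxidation, up by 3.74 and Acadvl, of mitochondrial oxidation, by 2.79. Pdk4 had no UMI in crypt-like cells and was at least 2.40-fold and 1.38-fold higher.

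Of 12 genes of cholesterol handling 7 were higher and none lower, and the median fell from 2.00 to 0.68 with bounds. Abcg5 and Abcg8, which together return sterols to the lumen, rose by 4.80 and 4.64. Npc1l1, the sterol uptake receptor, was at least 6.46-fold and 1.66-fold higher. Abca1, the exporter to high-density lipoprotein, was called higher but rests on 3.32 and 2.98 CPM with no UMI in crypt-like cells, which makes it at least 1.90-fold higher in mouse 1 and sets no bound above 1 in mouse 2. Of 12 lipid transcription regulators 5 were higher and none lower (median 1.39), beside 21.3% of all genes called higher and 14.9% lower. Creb3l3, which activates apolipoprotein genes, had no UMI in crypt-like cells and was at least 30.1-fold and 13.5-fold higher, Maf rose by 4.82, Ppara, the fatty acid receptor of oxidation genes, by 4.22, and Hnf4g by 3.94.

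Of the genes of villus position, 2 of 8 tested for the tip, 7 of 7 for the middle and 3 of 7 for the bottom were higher in enterocyte-like cells and none was lower, beside the 21.3% of all genes called higher. Unlike the lipid lists, the villus lists were not left out of the clustering features, and Slc2a2 is also an enterocyte marker used to name clusters. These calls are therefore a description of the classes and not independent of how they were drawn. Klf4 rose by 5.34 and Ada by 3.97 for the tip, Slc2a2, the basolateral sugar exporter, by 7.52 and Slc7a9, an amino acid carrier, by 4.39 for the middle, and Il18 by 5.54, Reg3g, an antimicrobial lectin, by 4.07 and Ccl25, a chemokine for gut-homing lymphocytes, by 2.998 for the bottom. Slc15a1, the peptide carrier, and Slc2a5, the fructose carrier, had no UMI in crypt-like cells and were at least 7.09-fold and 6.46-fold higher in mouse 1 and at least 3.03-fold and 2.21-fold higher in mouse 2. Along the Apoa4 grade no gene of the 6 lipid lists passed the test and Ada was the sole gene of the villus lists to do so, with list medians from -0.30 for cholesterol handling to 1.61 for the villus middle beside -0.02 for all genes.

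The members also differed with the mitochondrial share of the barcode, in 2 directions. In mouse 1, the 47 enterocyte-like cells with 1% to 5% mitochondrial UMIs had Apob at 451 CPM and Mttp at 412 CPM, against 80.6 and 95.4 CPM in the 714 cells under 1%, while Fabp2 was at 3227 against 9783 CPM and Apoc3 at 457 against 1792 CPM. In mouse 2, the 17 cells with 1% to 5% had Apob at 67.8 CPM from 5 UMIs and Mttp at 109 CPM from 8 UMIs, against 91.9 and 73.6 CPM, and Fabp2 at 12618 against 39957 CPM. Apoc3 stood there at 1899 against 2260 CPM, with 115 of 140 UMIs in a single cell. The lower Fabp2 was thus seen in both mice and the higher Apob in mouse 1 alone. Of the 332830 UMIs of the 47 cells of mouse 1, 165313 came from 1 cell. That cell gave 119 of the 150 Apob and 103 of the 137 Mttp UMIs. It gave 176 of the 1074 Fabp2 and 3 of the 152 Apoc3 UMIs, which lowered the level of both genes.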

How the data were processed

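The authors deposited raw UMI counts per gene and barcode, made with Cell Ranger 6.1.2 on mm10 from 10x 3′ v3 libraries of DAPI-sorted live cells; the annotation release and strand setting were not given in the sources used here. Counts were filtered as in the study's methods (genes in at least 3 cells and the limits on cells given above). Seurat 5.3.0 under R 4.3.3 was used for RPCA integration of the libraries (2000 features, 30 dimensions, resolution 0.8), epithelial clusters were integrated again (k.weight 50), and clusters were named from marker lists: 3 or more markers, each in 10% or more of the cells and enriched by a log2 fold of 1 or more, and no epithelial name at 50% or more Ptprc-positive cells. The study's own cell labels were left aside, so classes may differ from its classes. Doublets were kept; Scrublet (scanpy 1.11.5) marked 1 and 0 cells and so did not work.

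Counts summed per mouse and class (8 classes with at least 20 cells per mouse, 16 sums) or Apoa4 group were tested with edgeR 4.0.16 (TMM, filterByExpr, quasi-likelihood, two-sided, Benjamini-Hochberg over all genes tested); SE is the log2 fold change over the root of F. There are 2 mice, so p-values rest on few degrees of freedom, shared over classes. Sums of 1 mouse are paired: deviations of same-mouse sums correlated in all 28 pairs of classes (r 0.112 to 0.608), and the replicate block was an alternative. Scripts were tested on simulated data. Alternatives included DESeq2 1.42.0. Binomial and Poisson intervals are exact, at 95%. The floor is 3 counts of the class total.

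Named genes are the 10 members; up to 4 called genes with the largest change per list; the 5 genes most like the members' mean; and the 5 that rose and the 5 that fell most with the Apoa4 grade. Values of some genes are not reported here. Members and lists were chosen with earlier results of these data known. Gene positions are those of GENCODE vM21 and promoter windows of RefSeq, GRCm38.p6.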

Additional observations from a re-analysis of the deposited data

Results flagged for a closer look

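UMIs of the 10 genes were also counted in barcodes that entered no comparison. Barcodes removed by the filters, mostly for their mitochondrial share, held 4368 of them in mouse 1 and 2962 in mouse 2, which is 0.0947% and 0.0913% of all UMIs of those barcodes, above the 0.0136% and 0.00795% of T-cell- or innate-lymphoid-like cells. The unnamed sub-cluster e7, with 59 and 24 cells, enterocyte markers and Ptprc, the pan-leukocyte gene, in 94.0% of its cells, held 10689 in mouse 1 and 4042 in mouse 2. That is 1.82% and 2.12% of its UMIs, against 2.49% and 6.84% in enterocyte-like cells. Whether these barcodes held a pair of cells was not tested.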

How the results depend on the processing

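Of the member and gene counts and member changes recomputed, 129 of 139 values of enterocyte-like over crypt-like, 137 of 140 of enterocyte-like over T-cell- or innate-lymphoid-like, 111 of 128 of macrophage- or monocyte-like over T-cell- or innate-lymphoid-like and 105 of 120 of the Apoa4 groups kept their direction and side of the threshold or stayed within 1.5 times. Without TMM, 1756 genes were higher over crypt-like cells, 2960 higher and 5493 lower over T-cell- or innate-lymphoid-like cells, and 3663 lower in macrophage- or monocyte-like cells. Over T-cell- or innate-lymphoid-like cells, the macrophage- or monocyte-like class had 6 members higher with no filter on low counts. In that setting 5930 of 20610 genes were called in either direction. With the fit held to the compared classes 1 member was lower (Dgat1), and 6644 of 11776 genes were called in either direction. For the same 2 classes, without the top 8% of doublet scores, the members' median was -0.084, Apoa1 -0.32, Apoa4 -0.22, Fabp2 -0.11 and Mogat2 -0.058. Leaving out 1 mouse, which leaves no test, put the median between -0.031 and 1.43, Apoa4 between -0.39 and 2.01, Fabp1 between -1.13 and 1.82, Fabp2 between -0.94 and 1.34 and Mttp between -1.15 and 0.68.

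For the Apoa4 groups, members higher numbered 4 with no filter (178 genes higher, 204 lower), 6 with the replicate block (389 and 389), 0 with 2 groups (0 and 0; 536 at an unadjusted p under 0.05, edgeR) and 1 with separate parts of the UMIs (1 and 0; 535). Genes higher numbered 37 with DESeq2, 12 (54 lower) under 10% mitochondrial UMIs, 7 (15 lower) at resolution 0.4, 35 with lipid genes kept as features and 5 (7 lower) from 2000 UMIs, and 51 were lower under 1% mitochondrial UMIs. Apob was -0.031 with the block, and with 1 mouse left out ran from -0.64 to 1.69, and Mttp from -0.33 to 1.21. The block changed no other member call. Less the T-cell- or innate-lymphoid-like level, the mean crypt-like level was -24.1 CPM for Dgat1 and -0.115 CPM for Cd36. Depth limits Cd36, with 13 and 2 UMIs in enterocyte-like cells. The cause of these changes was not tested. Settings of 2000 UMIs and 1% were chosen after seeing the data.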

Other observations

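Among all barcodes with at least 0.5% of their UMIs in the 15 enterocyte markers, 52 and 10 had 5% to 20% mitochondrial UMIs and 72 and 40 had more, in mouse 1 and mouse 2, and so entered no comparison. Those with 20% or more (72 and 40 barcodes, median 771.5 and 1284.5 UMIs) had Apob at 835 CPM (95% Poisson interval 637 to 1075) in mouse 1 and 544 CPM (412 to 705) in mouse 2, against 80.8 and 82.2 CPM in the 701 and 154 barcodes under 1%. Mttp stood at 404 and 201 CPM against 90.3 and 68.5 CPM, and Apoa4 at 2018 and 1996 CPM against 1087 and 819 CPM, with 96 of the 209 Apoa4 UMIs of mouse 2 in a single barcode. Fabp2 went the other way, with 1127 and 3027 CPM against 9833 and 35323 CPM, as did Fabp1, with 1322 and 3524 CPM against 9334 and 24596 CPM, and Apoc3, with 278 and 372 CPM against 1790.0 and 1951 CPM. The order of the members therefore differed between barcodes under 1% and barcodes with 20% or more in both mice. At 5% to 20%, Apoa1 stood at 7322 and 9249 CPM, with 1008 of 1220 and 134 of 152 UMIs in a single barcode of each mouse. Ptprc was seen in 5.56% and 7.50% of the barcodes with 20% or more. These ranges were set after the data had been seen, no test was made, and what sets the barcodes apart was not tested.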
